A study of Homo sapiens with 2 samples.

Results

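Protein prenylation and CAAX processing enzymes were described in CL1-0 cells expressing FDFT1 from a vector and in those with a control vector. The set is 9 genes of the 19775 that the array's annotation names: GGPS1, FNTA, FNTB, PGGT1B, RABGGTA, RABGGTB, ZMPSTE24, RCE1 and ICMT. Its members were all probe sets, the groups of short probes that report a transcript, that list 1 of these genes alone. They were 17 of 41091 named probe sets. A further 5 probe sets list a member beside other genes (3 for FNTB and 2 for RABGGTB) and give no value for a member here.

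CL1-0 is a human cell line established from lung adenocarcinoma, and the labels give its cell type as type II alveolar. The control sample expressed the control vector and the other the FDFT1 vector; both were stably transduced and kept under puromycin for 2 weeks, and no other genotype or treatment is named. FDFT1 is squalene synthase, and total RNA of each sample was read on 1 Affymetrix array. Each group is 1 array without a replicate, so every difference below compares 2 arrays, and no replicate error or p-value can be given. The promoter of the vectors and whether the cells were a pool or a clone are not stated in the labels, and FDFT1 itself was not analysed here.

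Farnesyl pyrophosphate is a branch point of the mevalonate pathway. Squalene synthase takes it towards sterols, whereas protein farnesyltransferase attaches its farnesyl group to the cysteine of a C-terminal CAAX box, and GGPS1 extends it to geranylgeranyl pyrophosphate for the geranylgeranyl transferases. After the lipid is attached, RCE1 or ZMPSTE24 removes the AAX residues and ICMT methylates the new C-terminus, which brings RAS proteins, lamins and G protein gamma subunits to membranes; RAB proteins are prenylated by a separate enzyme. The comparison addresses whether transcripts of the enzymes that use or follow this substrate stood at other levels in the cells with the FDFT1 vector.

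No measured member probe set differed by 2-fold or by 1.5-fold between the arrays. A probe set was taken as measured when the higher of its signals reached 12.2, the median of all signals, and 13 of the 17 were, for 8 of the 9 genes. Of these 13, none reached 2-fold, where 1.51% of all 24609 measured named probe sets did, and none reached 1.5-fold, where 9.36% did. These shares depend on signal level. With the floor at 99.4, which 11 member probe sets passed, 0.11% of 12591 named probe sets reached 2-fold and 1.70% reached 1.5-fold. Differences are log2 of the FDFT1 signal over the control signal, minus a median difference of the 2 arrays. This median, over probe sets at or above 12.2 on both arrays, was -0.11. The member differences ran from -0.35 for a GGPS1 probe set to 0.39 for a PGGT1B probe set, with 8 above 0 and 5 below. Their median was 0.12, against 0.0036 over all measured named probe sets.

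**Figure D1:**
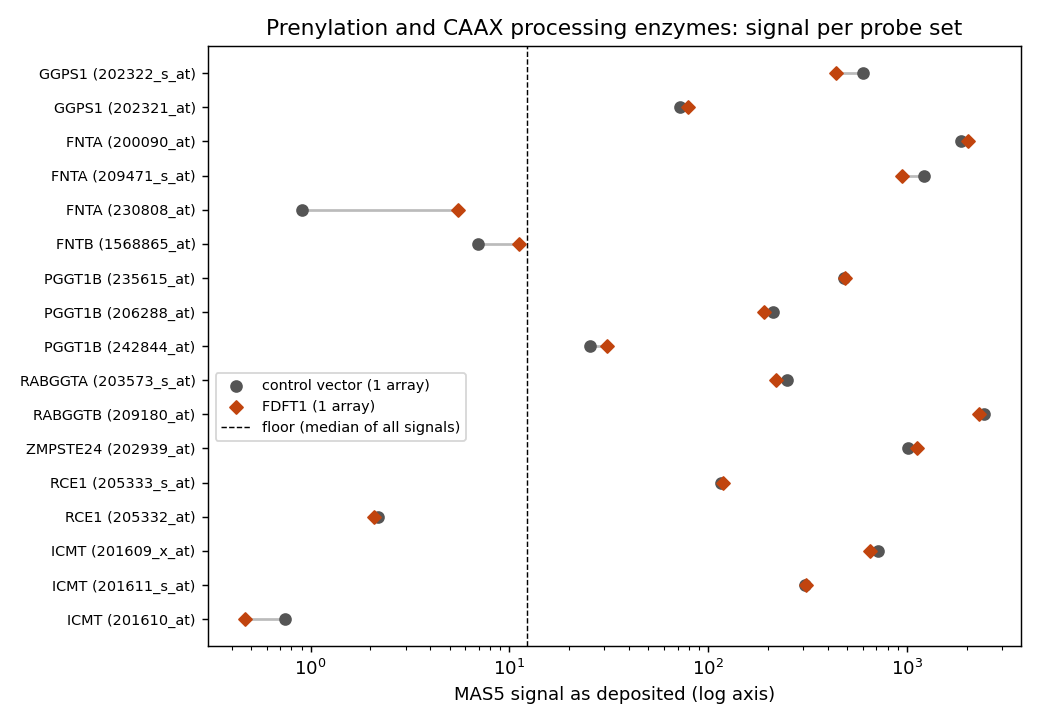
MAS5 signals as deposited (log axis) of the 17 member probe sets on the control vector array (grey circles) and the FDFT1 array (orange diamonds), with the floor of 12.2 as a dashed line. The markers of each probe set right of the floor lie close together, and 4 probe sets lie left of it on both arrays.

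The spread between probe sets of one gene gives a scale for these values. Within each gene with several measured probe sets, the values of the brightest pair were subtracted. Only genes whose brightest pair lay in the same range of mean log2 signal were used. The SD of these gaps over genes was divided by the square root of 2. This is called the probe-level error here, and it leaves out variation between cultures. By mean log2 signal it was 0.49 (below 5), 0.30 (5 to 7), 0.22 (7 to 9), 0.16 (9 to 11) and 0.097 (over 11). In the member set, 4 of 13 probe sets (30.8%) differed by more than the error of their signal range, and among all measured named probe sets 33.4% did. The 4 were 1 of GGPS1, both measured probe sets of FNTA, and the probe set of ZMPSTE24. With the arrays as deposited, 2 of 13 did (1 of GGPS1 and 1 of FNTA), against 38.8% of all.

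**Figure D2:**
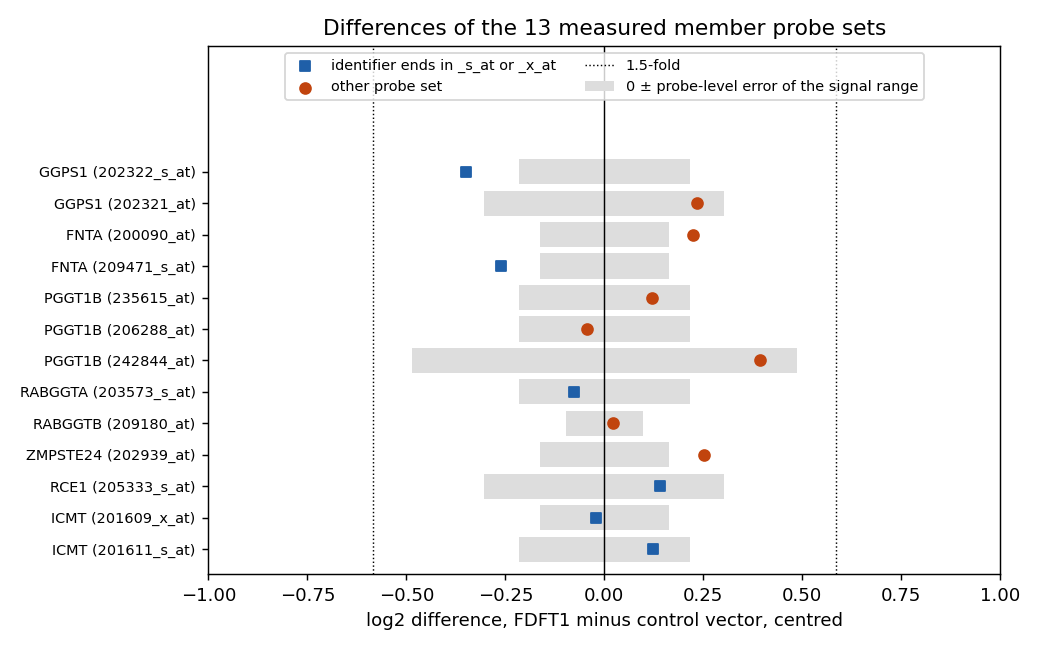
Centred log2 differences (FDFT1 minus control vector) of the 13 measured member probe sets, with grey bars from minus to plus the probe-level error and dotted lines at 1.5-fold. Points of GGPS1, FNTA and ZMPSTE24 lie outside their bars, on opposite sides of 0 for the 2 FNTA probe sets, and none crosses a dotted line.

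GGPS1 (Entrez gene 9453), the synthase of geranylgeranyl pyrophosphate, held the lowest value of the set. Its brighter probe set, 202322_s_at, read 599 with the control vector and 437 with FDFT1, a centred difference of -0.35 (1.27-fold lower, probe-level error 0.22). Of the 6093 measured probe sets in the same signal range, 14.6% lay at least as far from 0. The other GGPS1 probe set, 202321_at, read 72.2 and 78.9, a difference of 0.23 (error 0.30). GGPS1 was therefore lower on one probe set and higher on the other, and the mean of both was -0.06. A gap of at least this size, 0.58, between the 2 brightest probe sets was found for 13.3% of 1003 genes with the same signal ranges.

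FNTA (Entrez gene 2339), the alpha subunit shared by protein farnesyltransferase and geranylgeranyl transferase type I, also split between its probe sets. Probe set 200090_at read 1863 in the control sample and 2021 with FDFT1, a difference of 0.22. Probe set 209471_s_at read 1219 and 945, a difference of -0.26 (error 0.16 for each). Both lay outside the probe-level error, in opposite directions, and their mean was -0.02. With the arrays as deposited the first was at 0.12, inside the error, and the second at -0.37. The gap between them was 0.49; of 503 genes whose 2 brightest probe sets lay in this signal range, 4.77% had a gap at least as large. The third FNTA probe set was under the floor on both arrays, at 0.903 and 5.53, and gives no difference.

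FNTB (Entrez gene 2342), the beta subunit that makes the FNTA dimer a farnesyltransferase, had 1 probe set under its own name alone. It read 6.93 with the control vector and 11.2 with FDFT1, both under the floor, so no difference is given. The 3 probe sets that list FNTB beside another gene were above the floor, but their signal cannot be assigned to FNTB alone, and FNTB therefore has no value here. The floor does not mark detection, for which no calls were used here.

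PGGT1B (Entrez gene 5229), the beta subunit of geranylgeranyl transferase type I, had 3 measured probe sets, the most of any member. The brightest, 235615_at, read 479 and 484, a difference of 0.12, and 206288_at read 211 and 191, a difference of -0.04 (error 0.22 for each). The dim probe set 242844_at read 25.4 and 31.0, a difference of 0.39 with an error of 0.49; 39.5% of the 6992 measured probe sets in that range lay at least as far from 0. All 3 PGGT1B values were within the probe-level error.

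The RAB geranylgeranyl transferase, which adds geranylgeranyl groups to RAB proteins of vesicle traffic, had 1 probe set for each subunit. RABGGTA (Entrez gene 5875), the alpha subunit, read 248 with the control vector and 218 with FDFT1, a difference of -0.08 (error 0.22). RABGGTB (Entrez gene 5876), the beta subunit, read 2423 and 2285, a difference of 0.02 (error 0.097). Both subunits lay within the probe-level error. The sign of RABGGTB came from the scaling: it was -0.08 with the arrays as deposited, -0.01 after quantile normalization and -0.00054 after a loess correction.

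Among the enzymes that act after prenylation, ZMPSTE24 (Entrez gene 10269), the zinc metalloprotease that also matures prelamin A to lamin A, had the largest difference on its brightest probe set. Its only probe set read 1013 in control cells and 1120 with FDFT1, a difference of 0.25 (1.19-fold higher, error 0.16). Of the 3578 measured probe sets in its signal range, 16.0% lay at least as far from 0. With the arrays as deposited it was 0.14, under that error.

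RCE1 (Entrez gene 9986), the endoprotease that cleaves most CAAX proteins, read 116 and 119 on its measured probe set, a difference of 0.14 (error 0.30). Its other probe set read 2.19 and 2.09, under the floor on both arrays. ICMT (Entrez gene 23463), the carboxyl methyltransferase that ends the pathway, read 712 and 652 on 201609_x_at, a difference of -0.02 (error 0.16), and 306 and 310 on 201611_s_at, a difference of 0.12 (error 0.22). The third ICMT probe set was under the floor, at 0.741 and 0.469. The measured values of RCE1 and ICMT lay within the probe-level error.

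All 4 member genes with at least 2 measured probe sets (GGPS1, FNTA, PGGT1B and ICMT) had the 2 brightest on opposite sides of 0. Over all 6536 such genes, 55.2% had both on the same side, and the median gap was 0.23. The gaps of PGGT1B and ICMT, 0.16 and 0.14, were smaller than that median, and those of GGPS1 and FNTA were larger.

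The member values were also split by the kind of probe set, after they had been seen and with no test. Identifiers ending in _s_at or _x_at mark probe sets that can match more than one transcript. Of the 6 measured member probe sets of this kind, 4 were below 0, with a median of -0.05, and of the other 7, 1 was below 0, with a median of 0.22. The second count was 2 of 7 with the arrays as deposited, after quantile normalization and after loess, and the first was 4 of 6 in each. Among all measured named probe sets, 52.7% of the 9427 of this kind and 47.5% of the other 15182 were below 0, with medians of -0.01 and 0.02. The part of cross-matching in the member values was not tested.

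**Figure D3:**
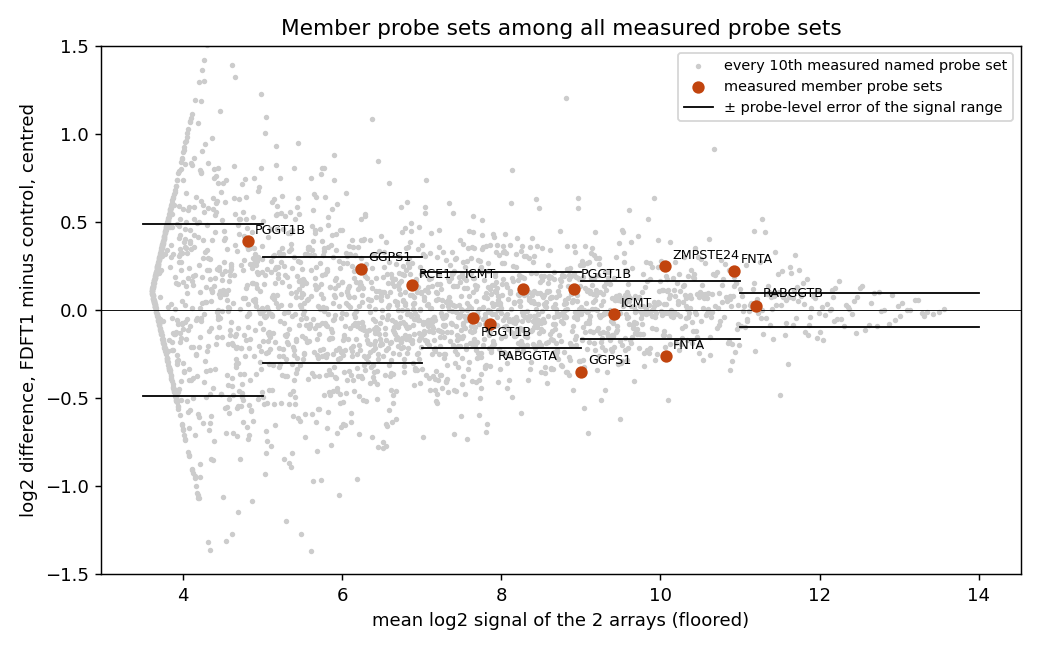
Centred log2 difference against the mean log2 signal of both arrays for every 10th measured named probe set (grey; points beyond 1.5 on either side are not drawn) and for the 13 measured member probe sets (orange, with gene names). Black lines mark the probe-level error of each signal range, and the members lie within the grey cloud.

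Other genes that make or use prenyl diphosphates were also near 0. This list holds 9 genes, 7 of them measured on 12 probe sets, with 6 above 0, 6 below and a median of 0.03. The signs of small medians rest on the centring: with the arrays as deposited, the medians of this list and of the 4 lists that follow were all below 0, as was that of all measured named probe sets (-0.10). None of the 12 reached 2-fold and 1 reached 1.5-fold, where 1.51% and 9.36% of all measured named probe sets did. FDPS, which makes farnesyl pyrophosphate, was at -0.02 (2929 to 2680). DHDDS, a subunit of the enzyme that makes the dolichol chain, was at -0.24 (349 to 274, error 0.22) with 2 of 2 probe sets below 0. COX10, which farnesylates heme, was at -0.24 (239 to 188) on its brighter probe set and 0.59 (21.2 to 29.7) on a dim one, the value past 1.5-fold. Of the enzymes of ubiquinone synthesis, PDSS1 was at 0.18 (760 to 801, error 0.16) and COQ2 at 0.13 (297 to 302, error 0.22).

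Proteins that bind prenylated proteins, or act with the transferases, had a median of -0.06 over 22 measured probe sets of 9 genes. Of these, 9 were above 0, 13 below and none at 1.5-fold, against 9.36% of all measured named probe sets. ARHGDIA, an inhibitor that extracts prenylated GTPases from membranes, was below 0 on 4 of 4 probe sets, all ending in _s_at or _x_at. The brightest was at -0.37 (543 to 391, error 0.22) and the others lay between -0.21 and -0.05. PCYOX1, the prenylcysteine oxidase that degrades the prenylated residue, was at -0.36 (672 to 486, error 0.16) on one probe set and 0.27 on the other. PTAR1, a relative of the prenyltransferase alpha subunits, was at 0.19 (272 to 288) and 0.40 on its 2 measured probe sets. PDE6D, a chaperone of farnesylated RAS proteins, was at 0.41 (250 to 309, error 0.22) on an _x_at probe set, while its other measured probe sets lay at -0.02 and -0.29.

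Substrates of these enzymes were compared in 2 lists. The list of lamins and other farnesylated proteins, 17 genes with 45 measured probe sets, had a median of 0.05. Of these probe sets, 28 were above 0 and 17 below. None was at least 2-fold different and 2 reached 1.5-fold, where 1.51% and 9.36% of all measured named probe sets did. PTP4A1, a farnesylated protein tyrosine phosphatase, read 1228 in control cells and 2154 with FDFT1 on 200733_s_at, a difference of 0.92 with an error of 0.16. Its other 4 measured probe sets were also above 0 after centring, at 0.02 to 0.40, so the size of the PTP4A1 difference depended on the probe set. The lowest of these 4 read 1183 in control cells and 1116 with FDFT1, so its sign came from the centring. A dim one, at 0.39, read 3.27 in control cells, under the floor, and 14.8 with FDFT1. A dim probe set of PTP4A3, a phosphatase of the same family, was at -0.71 (35.5 to 20.1); it was named after its value was seen. Of the lamins, LMNB2 was at -0.20 (1456 to 1180, error 0.16) on its only measured probe set. CENPF, a farnesylated kinetochore protein, was at -0.21 (1429 to 1146, error 0.16) on its brightest probe set and 0.17 (280 to 294) on another. A dim CENPF probe set was at 0.50, from 10.9 in control cells, under the floor, to 16.0 with FDFT1. PTGIR, a prostacyclin receptor, was dim, at 0.53 (18.7 to 25.1, error 0.49).

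G protein gamma subunits had a median of 0.07 over 12 measured probe sets of 7 genes, with 8 above 0 and 4 below. None was at 1.5-fold, against 9.36% of all measured named probe sets. GNG10 was at 0.22 (2717 to 2938, error 0.097) and GNG4 at 0.21 (176 to 190, error 0.22, 3 of 3 probe sets above 0). The dimmest of these 3 GNG4 probe sets read 22.4 in control cells and 22.1 with FDFT1, so its sign came from the centring. GNG7 was at -0.29 (78.9 to 60.0, error 0.30, 2 of 2 below 0, both ending in _s_at). GNG8 was dim, at 15.4 in control cells and 9.03, under the floor, with FDFT1.

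Some RAS proteins also carry palmitate, added after the CAAX steps. The 7 genes of this cycle had a median of 0.00068 over 14 measured probe sets, with 7 above 0 and 7 below. None was at 1.5-fold, against 9.36% of all measured named probe sets. LYPLA1, an acyl protein thioesterase that removes palmitate, was at 0.46 (2158 to 2760, error 0.097) and 0.18 on its 2 probe sets. Its relative LYPLA2 was at -0.23 (558 to 444, error 0.22), with 3 of 4 probe sets below 0, all 4 ending in _x_at. ABHD17B and ABHD17C, depalmitoylases of another family, were at 0.16 (466 to 483) and -0.25 (140 to 110).

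**Figure D4:**
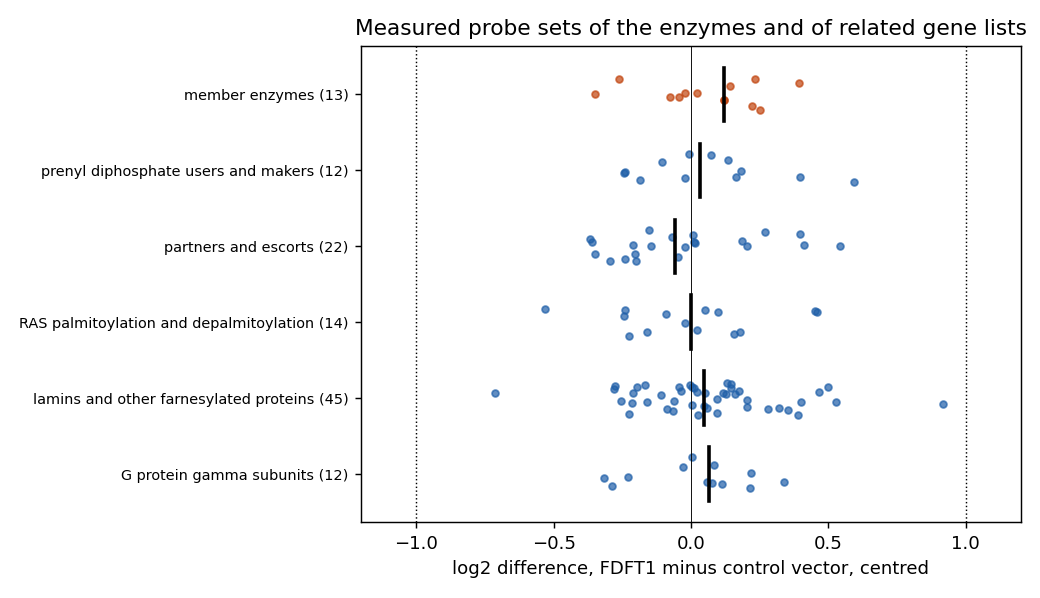
Centred log2 differences of the measured probe sets of the member enzymes (orange) and of the related gene lists (blue), with the number of probe sets in brackets, medians as black bars and 2-fold as dotted lines; vertical scatter within a row has no meaning. Medians lie between -0.06 and 0.12. No point crosses a dotted line, where 1.51% of all measured named probe sets do.

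The arrays were close in level as a whole, with median signals of 12.3 for the control vector and 12.1 for FDFT1. Defining markers of the labelled type II alveolar cells were dim. Of the 7, 6 had a probe set under their own name alone and 5 were measured. Their summed signals were 229 and 203, and the measured markers went both ways. SFTPC read 29.3 and 16.9 and ABCA3 79.9 and 55.6. LAMP3 read 53.0 and 58.8, SFTPB 32.0 and 35.3, and NKX2-1 31.1 and 29.3. Of 5 epithelial markers 3 were measured, all under 21, while CDH1 and KRT19 were under the floor on both arrays. Blood markers were also dim (4 of 5 measured, summed signals 89.8 and 92.9). So were fibroblast and endothelial markers (3 of 5, summed signals 110 and 125). These sums were above those of the epithelial markers, 52.6 and 54.4. The blood marker CD79A read 50.5 and 40.6, and the fibroblast marker COL1A1 read 65.5 and 83.0. PTPRC and CDH5, which define blood and endothelial cells, were under the floor on both arrays. In RNA of a whole culture, fewer cells expressing a gene and less RNA per cell cannot be told apart.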

How the data were processed

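Total RNA (6 µg) of 2 CL1-0 samples was labelled as biotinylated cRNA and read on 1 array each. The authors deposited MAS5 signal intensities on a linear scale, 1 per probe set, with MAS5 named in the submitters' processing notes; the labels give no MAS5 version or scaling target. MAS5 subtracts mismatch signals, which makes low values unstable. Groups came from the sample titles.

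With Python 3.11.15, numpy 2.4.6 and pandas 2.3.3, 62 control probe sets were removed and 54613 kept. The platform annotation names 1 gene for 41091, several for 1801 and none for 11721. Signals under 12.2 were set to that floor, and log2 differences were then centred by -0.11. Where the control signal was floored, the difference without a floor is at or above the value used. Where the FDFT1 signal was floored, it is at or below that value, so a small value above 0 can have the wrong sign. No test was possible with 1 array per group. For arrays, their number limits the precision. The sizes used were 2-fold and 1.5-fold.

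All members are described. From each other list reported the 2 largest differences each way, by the brightest measured probe set, are named. FDPS and a dim probe set of PTP4A3 are named outside this rule. The members and lists were chosen with earlier results of these data known. A planned list of proteins ending in a CAAX box needed protein sequences and was not analysed here, and 1 other planned list is not reported here. With 2 arrays, no gene could be matched to a member by pattern. Steps were tested on simulated data. Alternatives covered scaling (as deposited, quantile, loess with statsmodels 0.14.6), the floor, probe set kind and 1 value per gene.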

Additional observations from a re-analysis of the deposited data

How the results depend on the processing

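The counts of member probe sets at 2-fold and at 1.5-fold stayed at 0 under every alternative run except no floor. With no floor (signals under 1 set to 1) all 17 entered; 1 then reached 2-fold and 2 reached 1.5-fold, all among the probe sets under 12.2 on both arrays, while 21.5% of all 41091 named probe sets reached 2-fold and 32.8% reached 1.5-fold. Without a floor the counts at 2-fold were 2 for prenyl diphosphate makers and users, 1 for partners and escorts, 2 for lamins and other farnesylated proteins and 2 for gamma subunits. Centring before the floor, an alternative chosen after seeing the data, changed none of these counts from 0.

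The member median of 0.12 was 0.02 as deposited, 0.13 after quantile or loess scaling, 0.02 with the floor at 99.4 (the 75th percentile, 11 probe sets), 0.22 without _s_at and _x_at probe sets (7 probe sets), 0.07 with the brightest probe set of each gene, 0.06 as a mean, and 0.10 with the 5 probe sets shared with other genes, also added after seeing the data. Scaling changed the sign of 1 of 13 member probe sets, that of RABGGTB; as deposited, the list medians were -0.07 for prenyl diphosphate genes, -0.17 for partners and escorts, -0.105 for palmitoylation genes, -0.06 for other farnesylated proteins and -0.04 for gamma subunits. The median over all measured named probe sets was then -0.10. No culture replicate bears on any value.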
